A study of Mus musculus with 51 samples.

Results

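HMGN1 knock out primary mouse embryonic fibroblasts (MEFs) were compared with HMGN1 WT primary MEFs across all genes on a whole-genome expression array. The labels place 3 arrays in the HMGN1 knock out group and 3 in the HMGN1 WT group, 6 of the 51 arrays of the series. Both groups are C57BL/6 cells grown in serum-containing medium, and neither carries an overexpressed HMGN protein according to its genotype label. The labels attach the same text on retroviral infection and puromycin selection to every sample of the series, primary cells included, while the design text speaks of infection only for overexpression. The other 12 primary MEF arrays lent their spread to the test and enter no comparison. The deleted stretch of Hmgn1 is not stated, and the labels do not tell separate embryos or cultures from repeated arrays, so p-values measure only the spread between these arrays.

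HMGN1 is a small nuclear protein of the high mobility group N family. Proteins of this family bind the nucleosome core, compete with linker histone H1 for chromatin and are associated with open, regulatory chromatin. HMGN1 has been linked to DNA repair, including the removal of ultraviolet damage, to the heat shock response and to histone modification. Primary MEFs are fibroblast-rich cultures of mouse embryos that still divide, so their RNA includes the periodic transcripts of DNA replication and mitosis.

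Values are log2 array intensities. A difference is the HMGN1 knock out mean minus the HMGN1 WT mean, given with its standard error (n = 3 arrays per group). A gene was called where limma's Benjamini-Hochberg adjusted p over the 13674 genes tested was below 0.05. In the tested genes the median standard deviation within a group was 0.103 in knock out and 0.0795 in WT. The median array intensity before taking logs was 5.49 to 5.63 in knock out and 5.46 to 5.57 in WT, and the number of arrays limits the precision. The median difference over all genes was -0.02.

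The bright probe sets of the targeted gene were lower in every knock out array but still gave a strong signal. The brightest of the 4 Hmgn1 probe sets had 10.57, 10.63 and 10.56 in knock out and 11.19, 11.32 and 11.25 in WT, so the groups did not overlap. Its difference was -0.67 ± 0.05 (limma adjusted p = 2.08e-06), which leaves 63.0% of the WT signal. Another probe set had 10.09, 9.91 and 9.97 in knock out and 10.89, 10.88 and 10.85 in WT, a difference of -0.88 ± 0.06. One more, at 9.95, 9.82 and 9.87 in knock out and 10.74, 10.81 and 10.76 in WT, differed by -0.89 ± 0.05. These 3 were each called when p was adjusted over all 28578 probe sets tested (limma adjusted p = 4.9e-06, 5.7e-07 and 2.1e-07, in the order given). The remaining probe set was too dim to test, with means of 1.24 in knock out and 1.08 in WT. A probe outside the deleted part of a gene checks nothing, and the labels do not place the deletion. Whether the bright probe sets also read other transcripts was not tested. The array thus does not show how much HMGN1 protein was left.

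The 3 knock out arrays were not alike in sex-linked RNA, and this stands beside every result below. Xist, the RNA that coats the inactive X chromosome of female cells, was at 3.14, 8.61 and 7.40 in knock out and at 8.63, 8.61 and 8.56 in WT. The Y-linked translation factor gene Eif2s3y was at 5.85, 1.28 and 5.23 in knock out and at 1.41, 1.31 and 1.41 in WT. Knock out replicate 1 thus had male-type RNA, replicate 2 matched the WT arrays in Xist and Y-linked RNA, and replicate 3 had both kinds. The Y-linked demethylase genes Kdm5d (4.22, 0.77 and 3.67 in knock out, 0.93, 1.00 and 0.52 in WT) and Uty (4.81, 1.22 and 3.78 in knock out, 1.17, 1.08 and 1.19 in WT) followed the same arrays. Of the X-linked genes that escape inactivation, Mid1 was at 2.38, 3.45 and 3.16 in knock out and 4.20, 4.33 and 4.10 in WT. Replicate 2 was thus below every WT array in Mid1, as it was in Kdm5c, Kdm6a and Eif2s3x. None of these genes was called. Knock out replicate 1 was also the array least like the rest, with correlations of 0.9925 to 0.9956 with the other 5 arrays, against 0.9953 to 0.9979 among those 5. Its Actb probe sets showed the largest excess of 3' over 5' signal (0.41, against 0.30 and 0.35 in knock out replicates 2 and 3 and 0.33, 0.34 and 0.30 in WT). The main counts of calls below are also given without replicate 1 and with replicate 2 as the only knock out array.

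In the knock out cultures, 60 of 13674 genes were called (0.439%), 48 lower (0.351%) and 12 higher (0.0878%). The lower genes hold enzymes of DNA replication, checkpoint and repair genes, and some of the genes that lie near Hmgn1 on chromosome 16. Of the 12 higher genes, 2 (Gpx3 and Ndrg1) were in any of the gene lists read. Changes were small: 15 genes fell and 4 rose by at least 1.5-fold, and the median difference was -0.52 among the 48 and 0.52 among the 12. At an unadjusted p below 0.05 there were 2121 genes (15.5%), 1403 lower (10.3%) and 718 higher (5.25%). In all 60 called genes the 2 groups did not overlap. Over all tested genes there were 1838 genes with all knock out arrays below all WT arrays (13.4%) and 1029 with all above (7.53%). The largest differences are drawn array by array in the plot of called genes.

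**Figure D1:**
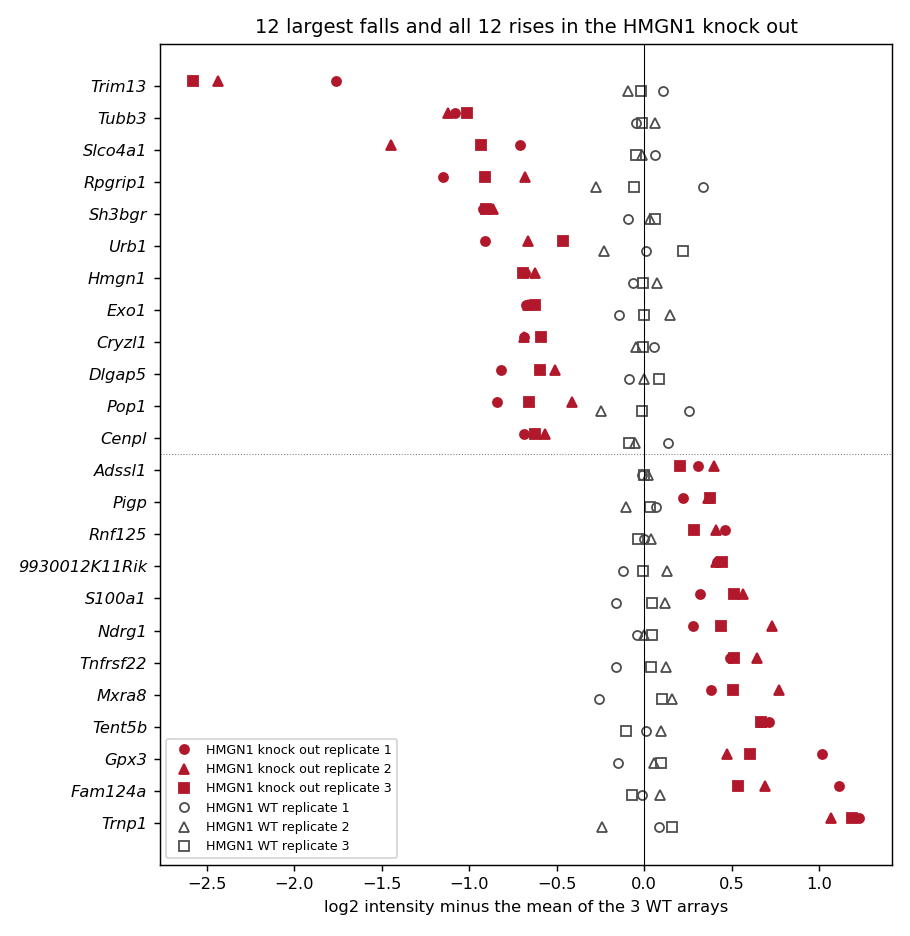
Log2 intensity of each array minus the mean of the 3 WT arrays, for the 12 largest falls (top) and all 12 rises (bottom) among called genes; filled red symbols are knock out arrays, open grey symbols WT arrays, and the symbol shape is the replicate. The 2 groups are separate at every gene shown, and Trim13 stands apart at -2.26 with knock out replicate 1 nearest to WT.

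The count rested on the arrays used. Without knock out replicate 1 there were 41 calls (20 lower, 21 higher), of which 26 were among the 60. Without WT replicate 1, 2 or 3 there were 37, 36 or 18 calls. With knock out replicate 2 as the only knock out array, there were 26 calls, 13 lower and 13 higher, which held 12 of the 60. With an estimate of the male share of each culture as a covariate, the calls numbered 130 and held 46 of the 60. With the spread estimated from the 6 compared arrays alone, 7 genes were called, all among the 60, and 0 of the replication genes. Across 15 alternative settings no called gene changed its sign. Many of these settings could not change one: the groups of all 60 genes did not overlap, so leaving out arrays keeps the sign. Others changed only the estimate of spread. Trim13, Tubb3, Sh3bgr, Cryzl1 and Hmgn1 were called in all 15.

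Trim13 had the largest fall. It encodes a RING-type ubiquitin ligase of the endoplasmic reticulum membrane. Its only probe set had 2.62, 1.95 and 1.81 in knock out and 4.49, 4.29 and 4.37 in WT. All knock out arrays were far below WT, and replicates 2 and 3 lay under the level of 1.99 at which probe sets were taken as too dim. The difference was -2.26 ± 0.15 (limma adjusted p = 1.30e-06). With values floored at that level it was -2.18 ± 0.13, which is read as a lower limit on the size of the fall. Among 29 tested genes of the TRIM family it was the only call, and the next lowest p belonged to Trim37 (-0.35 ± 0.08, limma adjusted p = 0.076).

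Tubb3, the beta-tubulin best known from neurons, had 4.31, 4.27 and 4.38 in knock out and 5.35, 5.46 and 5.38 in WT. The 3 knock out arrays lay within a narrow band about a log2 unit below WT, and the difference was -1.07 ± 0.08 (limma adjusted p = 4.16e-06). It was the only called member of the 23 tested tubulin and microtubule genes, which had a median difference of -0.10. It was also the only called member of 12 tested neuronal and glial markers, whose median was -0.03. Slco4a1, an organic anion transporter, was at 3.28, 2.54 and 3.06 in knock out and 4.05, 3.98 and 3.94 in WT (-1.03 ± 0.20, limma adjusted p = 0.030). Rpgrip1, known from the photoreceptor cilium, was at 5.00, 5.47 and 5.24 in knock out and 6.49, 5.88 and 6.09 in WT (-0.92 ± 0.16). The knock out arrays of Slco4a1 and both groups of Rpgrip1 were widely spread, but the groups did not overlap. Slco4a1 was not called without knock out replicate 2 or 3 or without any WT array, and Rpgrip1 not without knock out replicate 1 or 3 or WT replicate 1 or 3.

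Cell cycle genes were lower across both lists by small amounts. Of 49 tested DNA replication genes, 8 were called lower (16.3%) and 0 higher, where 0.351% of all tested genes were called lower. All 49 differences were negative and the median was -0.36, where 55.5% of all tested genes had a negative difference. Of 56 tested mitosis genes, 1 was called lower and 0 higher, 55 differences were negative and the median was -0.50. At an unadjusted p below 0.05 these were 43 of 49 and 50 of 56 genes, all lower, where 10.3% of all tested genes were lower. In 40 of 49 and 52 of 56 genes all knock out arrays lay below all WT arrays, where 13.4% of all tested genes did so. RNA was taken from whole cultures, so fewer cells in S phase or mitosis and less RNA per such cell cannot be told apart.

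The 3 knock out arrays did not share this difference equally. Relative to the WT mean, the replication genes had medians of -0.51, -0.27 and -0.31 in knock out and -0.08, 0.07 and 0.03 in WT. The mitosis genes had medians of -0.66, -0.39 and -0.45 in knock out and -0.16, 0.12 and 0.02 in WT. Replicate 1, the array with male-type RNA, was lowest in both lists, and WT replicate 1 was the lowest WT array. In both lists the medians had the same order in knock out and WT, with replicate 1 lowest and replicate 2 highest. The reason for this shared order was not tested. Knock out replicates 1, 2 and 3 lay below the lowest WT array in 47, 42 and 47 of the 49 replication genes and in 54, 53 and 54 of the 56 mitosis genes. Over all genes these shares were 45.1%, 30.1% and 27.7%. With replicate 2 as the only knock out array, which matches WT in Xist and Y-linked RNA, 47 of 49 replication and 55 of 56 mitosis differences were negative. Their medians were then -0.27 and -0.39, where the median over all tested genes was -0.0006. With the male share as a covariate the medians were -0.34 and -0.47, with 4 and 1 genes called.

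**Figure D2:**
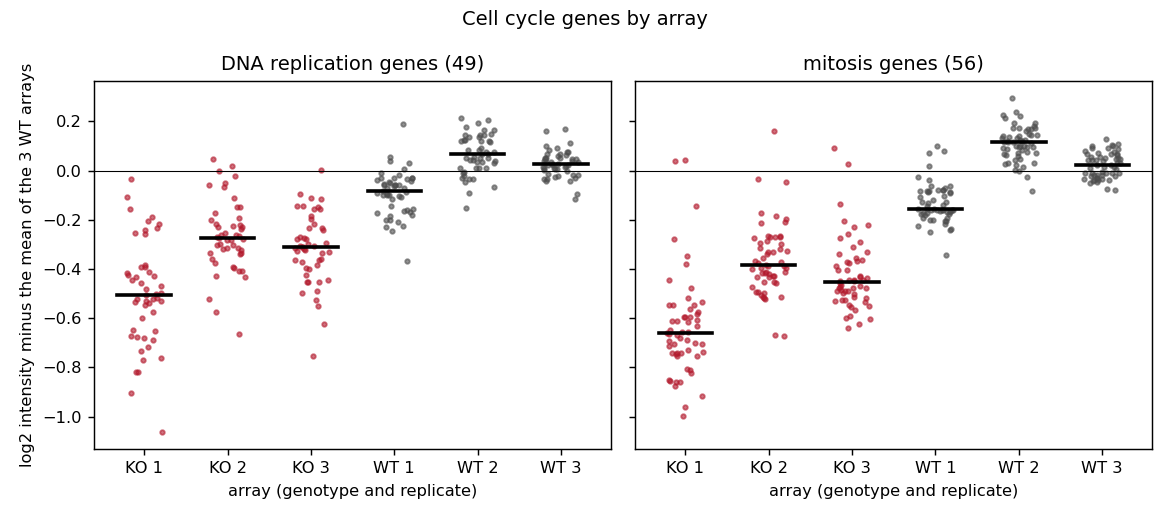
Log2 intensity minus the mean of the 3 WT arrays for the 49 tested DNA replication genes (left) and the 56 tested mitosis genes (right), one column of points per array (KO, HMGN1 knock out in red; WT in grey) and a black bar at the median. The knock out medians are -0.51, -0.27 and -0.31 for replication and -0.66, -0.39 and -0.45 for mitosis, and the lowest points belong to knock out replicate 1.

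The replication calls covered licensing, the helicase and the polymerases. Mcm6, a subunit of the replicative helicase, was the firmest at 8.017, 8.003 and 7.958 in knock out and 8.339, 8.453 and 8.437 in WT (-0.42 ± 0.05, limma adjusted p = 0.0015). Its groups were far apart relative to their spread, and Mcm6 was the only replication gene still called without knock out replicate 1. The sister subunits Mcm7 (8.003, 8.079 and 8.020 in knock out, 8.416, 8.511 and 8.496 in WT, -0.44 ± 0.08) and Mcm2 (6.39, 6.54 and 6.56 in knock out, 6.86, 6.97 and 6.86 in WT, -0.40 ± 0.08) were called too. Their partners Mcm3 (-0.38 ± 0.08), Mcm4 (-0.35 ± 0.08) and Mcm5 (-0.43 ± 0.10) had all knock out arrays below WT but missed the threshold (limma adjusted p = 0.063, 0.063 and 0.076). Cdt1, which loads the helicase onto origins, was called at -0.32 ± 0.07, and its partner Cdc6 had -0.52 ± 0.11 (limma adjusted p = 0.055).

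Among the polymerases, Pola1, the catalytic subunit of polymerase alpha, had 4.53, 4.71 and 4.84 in knock out and 5.25, 5.37 and 5.25 in WT (-0.60 ± 0.11). Pole2, a subunit of polymerase epsilon, had 5.32, 5.62 and 5.52 in knock out and 5.98, 6.10 and 6.06 in WT (-0.56 ± 0.11). The exonuclease Exo1 had 3.96, 3.97 and 4.01 in knock out and 4.49, 4.78 and 4.64 in WT (-0.66 ± 0.13), and the single-strand binding subunit Rpa1 had 7.54, 7.90 and 7.83 in knock out and 8.18, 8.19 and 8.26 in WT (-0.46 ± 0.08). Knock out replicate 1 was the lowest array for Pola1, Pole2 and Rpa1. The sliding clamp Pcna had 9.24, 9.50 and 9.46 in knock out and 9.71, 9.81 and 9.78 in WT (-0.37 ± 0.08, limma adjusted p = 0.063). The other members ranged down to Fen1 (-0.05 ± 0.10), whose groups overlapped. Of the 8 replication calls, 1, 5 and 3 remained without knock out replicate 1, 2 or 3 and 3, 1 and 1 without WT replicate 1, 2 or 3.

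Of the mitosis genes only Dlgap5, a spindle microtubule protein, was called, at 3.67, 3.98 and 3.89 in knock out and 4.40, 4.49 and 4.57 in WT (-0.64 ± 0.09, limma adjusted p = 0.0062). Kif11, the motor that pushes spindle poles apart, had the largest difference, with 4.25, 4.49 and 4.66 in knock out and 5.00, 5.24 and 5.25 in WT (-0.70 ± 0.15, limma adjusted p = 0.063). The kinase gene Aurkb had -0.66 ± 0.17 (4.10, 4.73 and 4.49 in knock out, 4.93, 5.34 and 5.02 in WT), and the proliferation marker Mki67 had -0.55 ± 0.16 (6.70, 6.86 and 6.86 in knock out, 7.21, 7.48 and 7.37 in WT). In all 3 genes the groups did not overlap but the adjusted p missed the threshold. Top2a, the topoisomerase that untangles chromosomes and a member of both lists, had -0.54 ± 0.14. The exceptions were Pttg1, the securin gene, at 0.10, and Foxm1, Cdc25c and Cit, whose groups overlapped.

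The promoters of these genes are shown because the replication and the mitosis list differed in the motifs they hold. RefSeq promoters (GRCm38.p6, 250 bases before to 50 after each start) were found for 39 of the 49 replication genes, 45 of the 56 mitosis genes and 37 of the 48 lower genes, and are printed 5′ to 3′ on the gene's strand. Capitals mark, in the replication genes Mcm6, Mcm7 and Cdt1, matches to the E2F letters TTTCGCGC, TTTGGCGC or TTTCCCGC on either strand. The Mcm7 window is that of the first of its 2 listed starts, and the window of the other start held 0 E2F matches. In Mcm6 a TTTGGCGC overlaps a TTTCGCGC of the other strand. In the mitosis genes Kif11 and Hmmr, capitals mark, again on either strand, the NF-Y letters CCAAT. They also mark the letters TTTGAA or TTTAAA of the cell cycle homology region. Hmmr encodes a spindle-associated hyaluronan receptor. All windows printed were picked because they hold matches. The mitosis genes were taken in order of p among those with both motifs in the same window, and Dlgap5 was not among them.
Mcm6, chr1:128359656-128359955, minus strand: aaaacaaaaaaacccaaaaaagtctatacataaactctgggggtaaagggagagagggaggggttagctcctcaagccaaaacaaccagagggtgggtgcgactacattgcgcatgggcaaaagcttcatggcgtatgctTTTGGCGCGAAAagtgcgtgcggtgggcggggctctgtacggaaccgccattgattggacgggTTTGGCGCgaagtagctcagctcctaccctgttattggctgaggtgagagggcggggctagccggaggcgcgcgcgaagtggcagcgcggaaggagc
Mcm7, chr5:138171834-138172133, minus strand: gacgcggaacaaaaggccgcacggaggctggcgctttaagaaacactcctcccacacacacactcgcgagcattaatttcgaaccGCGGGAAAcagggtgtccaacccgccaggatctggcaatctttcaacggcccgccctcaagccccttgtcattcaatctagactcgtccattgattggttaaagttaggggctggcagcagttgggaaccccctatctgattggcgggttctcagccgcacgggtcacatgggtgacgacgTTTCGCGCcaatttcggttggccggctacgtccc
Cdt1, chr8:122567765-122568064, plus strand: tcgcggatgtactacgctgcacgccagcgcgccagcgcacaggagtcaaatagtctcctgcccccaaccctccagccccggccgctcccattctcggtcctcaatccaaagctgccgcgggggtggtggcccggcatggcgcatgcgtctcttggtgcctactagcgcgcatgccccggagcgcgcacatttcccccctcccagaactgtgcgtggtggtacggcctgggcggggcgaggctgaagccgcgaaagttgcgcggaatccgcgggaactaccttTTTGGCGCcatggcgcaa
Kif11, chr19:37376132-37376431, plus strand: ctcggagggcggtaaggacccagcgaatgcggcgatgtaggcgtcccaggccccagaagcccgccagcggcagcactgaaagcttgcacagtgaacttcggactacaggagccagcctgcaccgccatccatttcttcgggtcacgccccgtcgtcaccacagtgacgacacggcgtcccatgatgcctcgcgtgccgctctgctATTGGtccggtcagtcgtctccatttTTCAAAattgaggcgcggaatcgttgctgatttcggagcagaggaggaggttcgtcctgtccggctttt
Hmmr, chr11:40733388-40733687, minus strand: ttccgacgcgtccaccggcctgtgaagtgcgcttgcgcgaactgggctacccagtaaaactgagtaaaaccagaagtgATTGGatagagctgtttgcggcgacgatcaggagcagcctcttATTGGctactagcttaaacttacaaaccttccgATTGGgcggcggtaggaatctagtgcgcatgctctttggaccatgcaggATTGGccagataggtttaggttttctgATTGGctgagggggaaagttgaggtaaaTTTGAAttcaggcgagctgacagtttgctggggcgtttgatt

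An E2F match was found in 14 of 39 replication genes (35.9%), 14 of 37 lower genes (37.8%) and 3 of 45 mitosis genes (6.67%), against 3.8% of all tested genes. The 8 higher genes with a promoter held none (0), and of all 32851 promoters supplied, 1.84% held a match. The cell cycle homology letters went the other way, with 35 of 45 mitosis genes (77.8%), 28.2% of replication genes and 13.5% of lower genes, against 22.4% of all tested genes and 27.6% of all promoters. CCAAT was found in 73.3%, 59.0% and 64.9% of the mitosis, replication and lower genes, against 42.4% of all tested genes and 37.4% of all promoters. Of the 8 replication genes called, 7 had a promoter in the table and 5 of them (Mcm6, Mcm7, Pola1, Pole2 and Cdt1) held an E2F match. A match describes letters in a window and does not show binding.

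**Figure D3:**
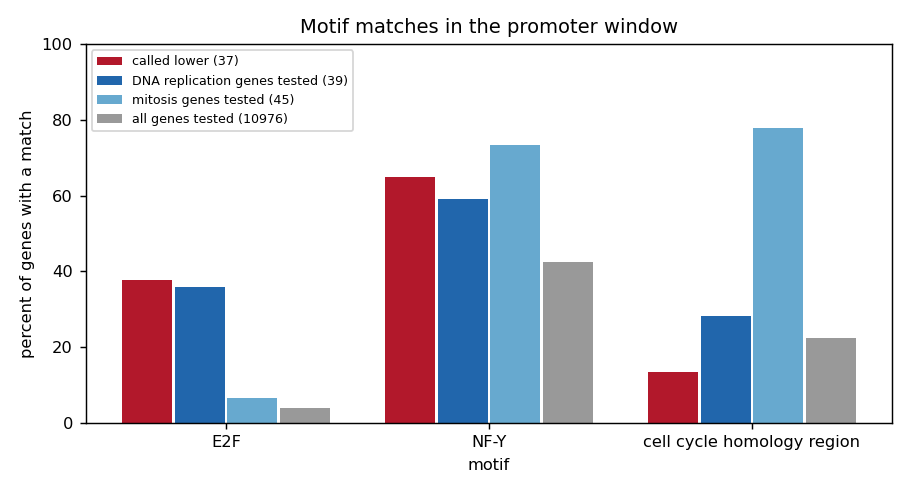
Percent of genes whose promoter window (250 bases before to 50 after the start) holds a match on either strand, for called lower genes, DNA replication genes, mitosis genes and all tested genes; the number of genes with a promoter is in brackets. E2F letters are found in 37.8% of lower and 35.9% of replication genes but 6.67% of mitosis genes, and the cell cycle homology letters in 77.8% of mitosis genes.

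Regulators of the cycle differed in both directions. Of 33 tested E2F and Rb family members, cyclins and inhibitors, 2 were called lower and 0 higher, and the median was -0.08. At an unadjusted p below 0.05, 13 were lower (39.4%, against 10.3% of all tested genes) and 5 higher (against 5.25% of all tested genes). Rbl1, the Rb-related protein p107, had 4.78, 4.90 and 5.15 in knock out and 5.46, 5.65 and 5.55 in WT (-0.61 ± 0.11, limma adjusted p = 0.020). Cdkn2c, an inhibitor of the cyclin D kinases, had 4.79, 5.30 and 5.22 in knock out and 5.62, 5.67 and 5.63 in WT (-0.54 ± 0.11, limma adjusted p = 0.049). Neither was called without knock out replicate 1 or without WT replicate 2 or 3, Cdkn2c also not without knock out replicate 3 or WT replicate 1, and Rbl1 not without knock out replicate 2. E2f1 differed by -0.09 ± 0.08 and Rb1 by 0.08 ± 0.08, with overlapping groups.

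Some inhibitors differed in the other direction, though none of these was called, while the called inhibitor Cdkn2c was lower. Cdkn2a, which encodes p16 and Arf, had 6.30, 6.68 and 6.62 in knock out and 6.21, 6.00 and 6.31 in WT (0.36 ± 0.10, limma adjusted p = 0.11), with groups that overlapped through knock out replicate 1 and WT replicate 3. Cdkn1c had 0.48 ± 0.19 and Cdkn1a, the p53 target p21, 0.13 ± 0.07. Of 23 tested p53 targets, 0 were called by limma, 0 had an unadjusted p below 0.05 and 0 had groups that did not overlap, with a median of 0.02.

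Repair and checkpoint genes were lower in part. Of 32 genes of repair other than nucleotide excision and of checkpoints, 4 were called lower and 0 higher, against 0.351% and 0.0878% of all tested genes. At an unadjusted p below 0.05, 14 were lower (43.75%, against 10.3% of all tested genes) and 0 higher. The median was -0.18. Chek1, the checkpoint kinase of stalled forks, had 4.26, 4.60 and 4.45 in knock out and 4.99, 5.05 and 4.87 in WT (-0.53 ± 0.09). Usp1, which removes ubiquitin from Fancd2 and Pcna, had 7.61, 7.57 and 7.64 in knock out and 7.92, 8.13 and 8.10 in WT (-0.44 ± 0.07). The mismatch repair gene Msh6 had -0.38 ± 0.07, and the groups were apart in each of the 4. Without knock out replicate 1 and without WT replicates 1, 2 and 3, 2, 2, 1 and 1 of these 4 kept their call.

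Nucleotide excision repair is a pathway tied to HMGN1. Of 26 tested members 1 was called lower and 0 higher, and the median was -0.04. At an unadjusted p below 0.05, 3 of the 26 were lower (against 10.3% of all tested genes) and 0 higher. The called gene was Rpa1, which also serves replication and is on that list. Ligase Lig1, shared in the same way, had -0.36 ± 0.11 (limma adjusted p = 0.14). Among other members of the pathway, the unadjusted p was below 0.05 only for Gtf2h4 (-0.17 ± 0.08). The difference was -0.11 ± 0.09 for Cetn2 and 0.07 ± 0.05 for Ddb1, and the groups of Gtf2h4, Cetn2 and Ddb1 overlapped. In 4 of the 26 all knock out arrays lay below all WT arrays (15.4%, against 13.4% of all tested genes). Uvssa (-0.13 ± 0.07) and Ercc3 (-0.07 ± 0.08) were among these.

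Uhrf1, which recruits the maintenance DNA methyltransferase to new DNA, had 6.00, 5.99 and 6.05 in knock out and 6.46, 6.70 and 6.65 in WT (-0.59 ± 0.12, limma adjusted p = 0.033). It was the only call among 29 chromatin modifiers (median -0.10). The methyltransferase itself, Dnmt1, had 6.75, 6.84 and 6.74 in knock out and 7.14, 7.07 and 7.09 in WT (-0.33 ± 0.08, limma adjusted p = 0.072). The groups did not overlap in either gene. Uhrf1 was not called without any 1 of the knock out arrays, without WT replicate 2 or 3, or with replicate 2 as the only knock out array.

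Of 20 histones and histone chaperones, 1 was called lower and 0 higher, and the median was -0.14. At an unadjusted p below 0.05, 10 were lower (against 10.3% of all tested genes) and 1 higher. The call was Nasp, a chaperone of histones H3 and H4, at 6.46, 6.61 and 6.58 in knock out and 7.07, 7.01 and 7.06 in WT (-0.50 ± 0.08), which was not called without WT replicate 3 or with replicate 2 as the only knock out array. Another Nasp probe set, near the dim limit at means of 2.06 in knock out and 1.74 in WT, gave 0.32 ± 0.10 and was not called (limma adjusted p = 0.16 over all probe sets). The gene higher on the unadjusted count was the linker histone gene H1f2, with 9.56, 9.68 and 9.69 in knock out and 9.08, 9.33 and 9.25 in WT (0.42 ± 0.11, limma adjusted p = 0.10).

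Among 12 tested genes of high mobility group proteins, Hmgn1 was the only call. Of the 19 genes on this list 13 were matched to a probe set, and Hmgn2 was not among the 13. Hmgb2, which is bound up with proliferation, had the next largest difference, at 7.17, 7.73 and 7.56 in knock out and 8.05, 8.11 and 8.10 in WT (-0.60 ± 0.14, limma adjusted p = 0.076). The related Hmgn3 (0.01 ± 0.08) and Hmgn5 (-0.05 ± 0.12) had overlapping groups, as had Hmga2 (0.06 ± 0.11). Hmgb3 had -0.31 ± 0.12, and Hmg20b, a subunit of a histone demethylase complex, 0.30 ± 0.11, and neither was called.

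Of the 14 tested genes tied to HMGN1 in earlier work, 1 was called lower and 0 higher, with a median of -0.0043. Hspa1b, an inducible Hsp70 gene, had 8.04, 8.04 and 8.17 in knock out and 8.51, 8.50 and 8.41 in WT (-0.38 ± 0.07, limma adjusted p = 0.017). All 3 of its probe sets were called over all probe sets, with -0.38, -0.32 and -0.32, but Hspa1a is a nearly identical copy and the probe sets may read both. Hspa1b was not called without knock out replicate 1 or WT replicate 1 or 2, or with replicate 2 as the only knock out array. Hspa1a itself had -0.36 ± 0.10 (limma adjusted p = 0.10). The cartilage regulator Sox9 had 0.25 ± 0.09 and the cyclin Ccnd1 0.20 ± 0.09, and neither was called. Of the 26 heat shock and chaperone genes Hspa1b was the only call (median -0.07), and of 32 AP-1 and immediate early genes 0 were called by limma, 1 lower and 3 higher at an unadjusted p below 0.05.

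Of the 48 lower genes, 21 were in any of the 28 lists read and 27 in none. Among the 27, Cenpl (2.86, 2.98 and 2.93 in knock out, 3.69, 3.50 and 3.46 in WT, -0.63 ± 0.11) and Cenps (-0.51 ± 0.10) belong to the centromere, Haus4 (-0.47 ± 0.08) to the augmin complex of the spindle, and Pds5a (-0.35 ± 0.07) to cohesin. Pop1, a subunit of RNase P and RNase MRP, had 4.99, 5.41 and 5.17 in knock out and 6.08, 5.58 and 5.82 in WT (-0.64 ± 0.13). Urb2 (-0.29 ± 0.06) and Rrp12 (-0.41 ± 0.07) have roles in making ribosomes that are best known from yeast. Of the genes named here only Haus4 was still called without knock out replicate 1, and none was called with replicate 2 as the only knock out array. Cenpl was also not called without WT replicate 1, and Pop1 not without knock out replicate 3 or WT replicate 1 or 3.

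Slc25a37, the mitochondrial iron importer mitoferrin, had a small but very even difference, with 5.12, 5.19 and 5.14 in knock out and 5.56, 5.51 and 5.57 in WT (-0.40 ± 0.05, limma adjusted p = 0.00046). It was called in 14 of the 15 alternative settings. Abcb10, a transporter of the inner mitochondrial membrane, had 5.38, 5.30 and 5.27 in knock out and 5.75, 5.87 and 5.77 in WT (-0.47 ± 0.07), with another probe set at -0.75 ± 0.08 and one below the dim limit in both groups at 0.08. The hedgehog factor Gli2 (-0.45 ± 0.08), the imprinted long RNA Kcnq1ot1 (-0.53 ± 0.08) and the fatty acid desaturase Fads1 (-0.30 ± 0.06) were also called. Over all called genes, 49 further probe sets of 31 genes were bright enough to test: 46 had the same sign, 10 of these were called over all probe sets, and none of the 3 of opposite sign was (0).

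The rises were led by Trnp1, a nuclear protein of neural progenitor cells, with 5.69, 5.53 and 5.65 in knock out and 4.54, 4.22 and 4.62 in WT. The groups were about a log2 unit apart, at 1.16 ± 0.18 (limma adjusted p = 0.0086), 2.24-fold. Fam124a had 4.23, 3.81 and 3.65 in knock out and 3.10, 3.20 and 3.04 in WT (0.78 ± 0.12), and the secreted peroxidase gene Gpx3 6.92, 6.38 and 6.51 in knock out and 5.75, 5.96 and 6.00 in WT (0.70 ± 0.12). In both, knock out replicate 1 was highest. Tent5b, of the family of non-canonical poly(A) polymerases, was low but even, at 2.90, 2.86 and 2.85 in knock out and 2.19, 2.28 and 2.08 in WT (0.68 ± 0.10).

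The other rises were smaller. Mxra8, a matrix-associated surface protein and alphavirus receptor, had 0.55 ± 0.10, the decoy death receptor Tnfrsf22 0.55 ± 0.09, the hypoxia-responsive Ndrg1 0.48 ± 0.10, the calcium-binding S100a1 0.46 ± 0.09 and the ubiquitin ligase Rnf125 0.38 ± 0.08. Of the 12 rises, 8, 5 and 7 kept their call without knock out replicate 1, 2 or 3 and 5, 7 and 3 without WT replicate 1, 2 or 3. When the arrays were quantile normalized again, all 12 kept it and 35 genes were called higher, 43.75% of 80 calls, against 20.0% of the 60.

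Genes near Hmgn1 were read because cells with a targeted allele can carry other DNA linked to it, which was not tested here. Hmgn1 left aside, 5 of 434 tested genes of chromosome 16 were called (1.15%), against 54 of 13165 on all other chromosomes (0.41%). All 5 lay within 50 tested genes of Hmgn1 in the RefSeq gene order, a window of 64 genes, and 0 of the 370 genes beyond it were called. They were not a block: Urb1, Ifnar1 and Cryzl1 lay 47, 39 and 31 tested genes before Hmgn1, Pigp 9 before and Sh3bgr 3 after, with uncalled genes between them. The window's median was -0.04.

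Sh3bgr, which encodes a glutamate-rich protein with an SH3-binding motif, had 2.65, 2.71 and 2.67 in knock out and 3.48, 3.61 and 3.64 in WT (-0.90 ± 0.10, limma adjusted p = 0.00029). Cryzl1, a quinone oxidoreductase-like gene, had 6.97, 6.97 and 7.07 in knock out and 7.71, 7.61 and 7.65 in WT (-0.66 ± 0.07, limma adjusted p = 0.00029). In these 2 genes the knock out arrays were nearly equal to each other, replicate 2 included. Cryzl1 was also called by 2 further probe sets (-0.85 ± 0.12 and -0.74 ± 0.10), while another had -0.03 ± 0.11.

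Ifnar1, a subunit of the type I interferon receptor, had 5.43, 5.62 and 5.65 in knock out and 6.14, 6.02 and 6.11 in WT (-0.52 ± 0.08, limma adjusted p = 0.0086). Urb1, whose yeast counterpart acts in ribosome assembly, had 3.43, 3.67 and 3.87 in knock out and 4.34, 4.11 and 4.56 in WT (-0.68 ± 0.14, limma adjusted p = 0.047). Pigp, a subunit of the enzyme that starts GPI anchors, was the only rise, at 7.25, 7.39 and 7.40 in knock out and 7.10, 6.93 and 7.06 in WT (0.32 ± 0.06, limma adjusted p = 0.020). The groups were apart in all 3 genes, but none of them was called without WT replicate 3 or with replicate 2 as the only knock out array. Urb1 was also not called without knock out replicate 1 or 2 or WT replicate 1, and Pigp not without knock out replicate 2 or 3 or WT replicate 2.

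The genes next to Hmgn1 were not called. Brwd1 on one side had -0.28 ± 0.07 (limma adjusted p = 0.083) and Get1 on the other -0.29 ± 0.08 (limma adjusted p = 0.10). Of the 20 nearest tested genes, 10 on each side, 1 was called lower (Sh3bgr) and 1 higher (Pigp), and 5 had an unadjusted p below 0.05, with Dyrk1a at -0.04 ± 0.10 and Ttc3 at 0.11 ± 0.06. Sim2, chosen after its values were seen, had the largest difference of the stretch, at 2.53, 2.01 and 1.99 in knock out and 3.58, 2.67 and 3.35 in WT (-1.02 ± 0.27). Its WT arrays were spread widely and it missed the threshold (limma adjusted p = 0.096).

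**Figure D4:**
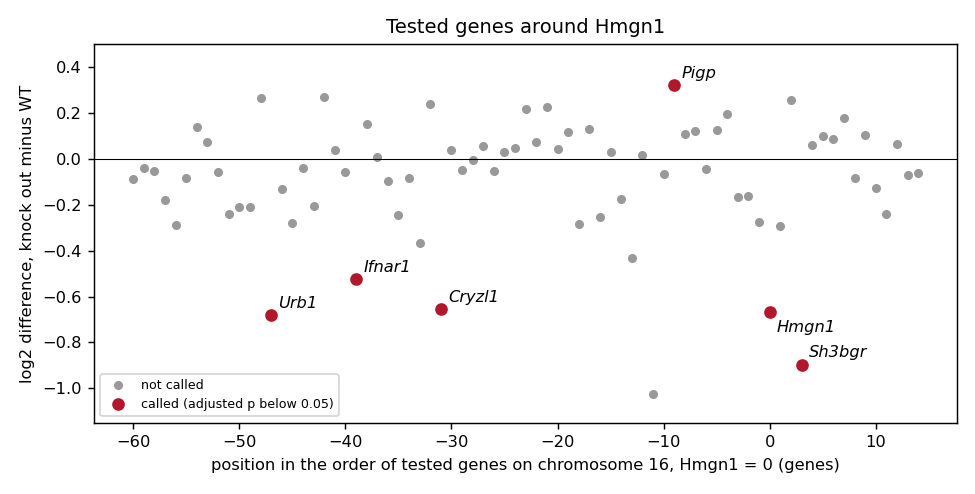
Log2 difference (knock out minus WT) of the tested genes around Hmgn1 on chromosome 16 against their place in the order of tested genes, with Hmgn1 at 0; red points are called genes, grey points are not. Urb1, Ifnar1, Cryzl1 and Sh3bgr fall and Pigp rises among neighbours that scatter around 0, and the lowest grey point is Sim2 at -1.02.

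Other chromosomes held calls close together too. On chromosome 14, 6 of 455 genes other than Trim13 were called (1.32%), and Fam124a, which rose, lies 4 tested genes from Trim13, which fell. On chromosome 4, 11 of 835 were called (1.32%, chosen after the values were seen), with Tent5b, Trnp1 and Nudc in direct sequence. Tent5b and Trnp1 rose, and Nudc, a dynein-associated protein, fell (8.22, 8.34 and 8.31 in knock out, 8.62, 8.53 and 8.62 in WT, -0.30 ± 0.05). On chromosome X, where the arrays differ in sex, 1 of 415 genes was called (0.241%, Pola1), against 59 of 13177 on the autosomes (0.448%).

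**Figure D5:**
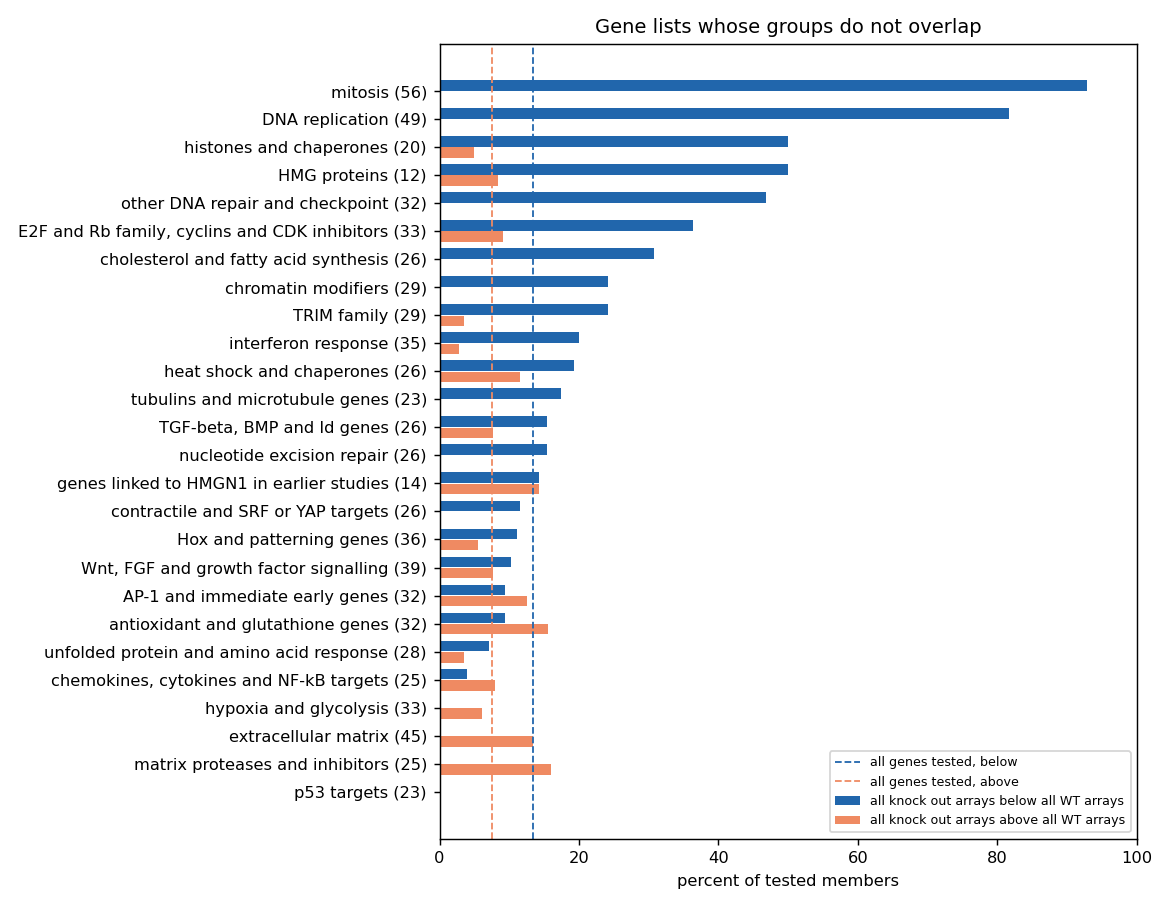
For each gene list, the percent of its tested members (number in brackets) with all 3 knock out arrays below all 3 WT arrays (blue) or above them (orange); dashed lines are the same over all tested genes, 13.4% below and 7.53% above. Mitosis and DNA replication stand far out on the lower side, and p53 targets have no bar on either side.

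The plot of gene lists also holds fibroblast programmes outside the cell cycle. Of 45 extracellular matrix genes 0 were called by limma, 1 was lower and 5 higher at an unadjusted p below 0.05, and the median was 0.04. Over all tested genes, 10.3% were lower and 5.25% higher on this count. Col1a1, the main chain of collagen I, had 11.54, 10.84 and 10.89 in knock out and 10.83, 10.61 and 10.82 in WT (0.34 ± 0.14, limma adjusted p = 0.25), with replicate 1 far above the other knock out arrays. Of 25 matrix proteases and inhibitors 0 were called by limma, and 4 were higher at an unadjusted p below 0.05. The lysosomal collagenase gene Ctsk had the lowest p, at 7.71, 7.55 and 7.74 in knock out and 7.41, 7.34 and 7.38 in WT (0.29 ± 0.06, limma adjusted p = 0.063). Among 26 contractile genes the median was 0.01, limma called 0 and 1 was higher at an unadjusted p below 0.05.

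Of 26 tested cholesterol and fatty acid synthesis genes 0 were called by limma, with a median difference of -0.16. At an unadjusted p below 0.05, 9 of the 26 were lower (34.6%, against 10.3% of all tested genes) and 0 higher. All 26 differences were negative, against 55.5% over all tested genes. Relative to the WT mean the medians were -0.08, -0.31 and -0.10 in knock out, so replicate 2 was lowest here. Msmo1, a sterol demethylase, had 7.57, 7.39 and 7.59 in knock out and 7.82, 7.76 and 7.77 in WT (-0.27 ± 0.08, limma adjusted p = 0.14). Of 33 hypoxia and glycolysis genes 1, Ndrg1, was called higher (against 0.0878% of all tested genes). At an unadjusted p below 0.05, 6 of the 33 were higher (against 5.25% of all tested genes) and 0 lower. The medians of these 33 genes, -0.12, 0.18 and 0.06 in the knock out arrays, disagreed in sign. The mitochondrial protein gene Bnip3 had 6.57, 7.85 and 7.28 in knock out and 6.57, 6.83 and 6.72 in WT (0.53 ± 0.22), and its groups overlapped through replicate 1.

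Of 35 interferon response genes 0 were called by limma, and the median was -0.17. At an unadjusted p below 0.05, 4 were lower (11.4%, near the 10.3% of all tested genes) and 0 higher (against 5.25%). The RNA sensor Ifih1 had 3.28, 3.59 and 3.46 in knock out and 3.58, 4.39 and 4.14 in WT (-0.59 ± 0.19, limma adjusted p = 0.15), with an overlap at WT replicate 1. The ubiquitin-like protease gene Usp18 had 2.20, 2.35 and 2.09 in knock out and 2.36, 2.93 and 2.90 in WT (-0.52 ± 0.27). The difference was negative in 28 of the 35, against 55.5% over all tested genes.

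The remaining lists had 0 calls by limma apart from Gpx3 among 32 antioxidant genes, where 2 were lower and 4 higher at an unadjusted p below 0.05. On the same count the lower and higher genes were 1 and 0 of 25 chemokines and NF-kB targets, 4 and 1 of 28 unfolded protein response genes and 3 and 2 of 36 Hox and patterning genes. They were 2 and 2 of 26 TGF-beta, BMP and Id genes and 2 and 2 of 39 genes of Wnt, FGF and growth factor signalling. The shares over all tested genes were 10.3% lower and 5.25% higher.

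Markers of other cell types were read for the make-up of the cultures. The 16 fibroblast markers had 0 calls. In 3 of the 16 all knock out arrays lay above all WT arrays, against 7.53% of all tested genes. Their summed intensity was 24937 to 27413 in knock out and 24662 to 25152 in WT. Thy1 had 10.99, 10.50 and 10.68 in knock out and 10.39, 10.43 and 10.47 in WT (0.30 ± 0.11). Of 15 tested macrophage and leukocyte markers 0 were called by limma and 1 was higher at an unadjusted p below 0.05. However, 7 of the 15 (46.7%, against 13.4% of all tested genes) had all knock out arrays below all WT arrays. The summed intensity of these markers was 491 to 653 in knock out and 659 to 696 in WT. The macrophage receptor Csf1r had 5.51, 6.05 and 5.98 in knock out and 6.27, 6.37 and 6.33 in WT (-0.48 ± 0.42), with an error estimated over all 18 arrays of the fit. Replicate 1 was again the lowest array, and the part of these markers in the cell cycle and other differences was not tested. Endothelial, epithelial, muscle, adipocyte, bone, erythroid, pericyte and germ cell markers had 0 calls by limma among 8, 9, 10, 7, 8, 4, 11 and 3 tested. At an unadjusted p below 0.05, 2, 1, 1, 1, 1, 0, 2 and 0 of them were higher, against 5.25% of all tested genes. On the same count 1, 0, 0, 0, 1, 0, 0 and 0 were lower, against 10.3% of all tested genes.

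Some genes varied strongly among the knock out arrays. Apart from the sex-linked genes, Ang, a secreted ribonuclease, was at 2.57, 5.46 and 4.42 in knock out and 6.17, 5.18 and 5.71 in WT. The metallothionein Mt1 was at 6.50, 9.13 and 8.15 in knock out and 6.62, 7.51 and 7.22 in WT, and Mt2 at 6.39, 8.98 and 8.13 in knock out and 6.21, 7.43 and 7.16 in WT. In both metallothioneins replicate 1 was low and replicate 2 high, and in both groups replicate 1 was the lowest array. Wdfy1, an endosomal protein, was at 6.90, 4.51 and 6.25 in knock out and 6.94, 6.88 and 6.89 in WT, so replicate 2 was far below and replicate 3 somewhat below WT. Zfp979 was at 2.37, 4.47 and 3.75 in knock out and 4.47, 4.87 and 4.70 in WT. AI506816 was at 1.64, 3.94 and 2.93 in knock out and 1.53, 4.24 and 3.41 in WT. Asb5 was at 3.48, 1.42 and 3.01 in knock out and 4.01, 1.70 and 2.64 in WT. In AI506816 and Asb5 the WT arrays varied at least as widely as the knock out arrays, in the same order of replicates. For Xist, Eif2s3y, Ang, Mt1, Mt2, Wdfy1 and Zfp979, replicate 3 lay between replicates 1 and 2, and none of them was called.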

How the data were processed

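RNA of 6 arrays (3 HMGN1 knock out, 3 HMGN1 WT) was analysed with 12 further primary MEF arrays. The authors deposited linear intensities per probe set. RMA is named without version or settings, per the submitters' processing notes; the genome build is not given in the sources used here. All value columns were mapped to samples through their labels (0 unused). Here log2 was taken, with no further normalization.

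Of 45101 probe sets, 64 were controls, 34945 carried 1 gene symbol, 932 several and 9160 none; names came from the platform annotation, updated through gene IDs of the RefSeq list (34741 of the 34945). A probe set was tested if its mean in any group reached the 40th percentile of group means (log2 1.99), and the brightest one stood for its gene. With 6 groups to pass through, 440 tested genes were below it in both compared groups. RMA can compress differences of dim genes, so small values there may understate change, which was not tested.

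A linear model in limma 3.58.1 (under R 4.3.3, moderated by eBayes; package data.table, version 1.17.8) was fitted to 18 arrays with a mean per group, no covariate and 12 residual degrees of freedom, two-sided, with Benjamini-Hochberg adjustment. The procedure was tested on simulated data. Genes named were drawn from the called genes, the HMG family, up to 6 members of each list with the lowest p, the sex-linked genes and the 10 tested genes on each side of Hmgn1. Mcm3, Mcm4, Mcm5, Cdc6, Pcna, Fen1, Aurkb, Mki67, Top2a, Hmmr, Pttg1, Foxm1, Cdc25c, Cit, E2f1, Rb1, Cdkn1c, Sim2, Mt1, Mt2, Ang, Wdfy1, Zfp979, AI506816 and Asb5 fall outside this rule and were chosen after their values were seen. The comparison, the 28 gene lists and 11 marker lists (930 of 997 genes matched) and the alternatives were chosen with earlier results of these data known. No set test was run. Over all tested genes, same-numbered arrays deviated together with correlations of 0.047, 0.0034 and 0.067, so the numbers were not taken as pairs. The cycle lists and some widely varying genes did share their order of replicates between the groups, and the reason was not tested.

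Promoter sequences and gene order came from RefSeq tables (GRCm38.p6). Alternatives were a second quantile normalization, testing without the filter, all probe sets singly, the 6 compared arrays alone, a replicate block, a male share covariate (summed Y-linked intensity scaled from 0 to 1), replicate 2 as the only knock out array, an intensity trend, a floor, and leaving out each array. Figures used python 3.11.15, pandas 2.3.3, numpy 2.4.6 and matplotlib 3.10.9.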

Additional observations from a re-analysis of the deposited data

How the results depend on the processing

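Against the 60 calls (48 lower, 12 higher), the number of called genes was 80 with a second quantile normalization (35 higher), 7 with a fit to the 6 compared arrays (5 lower, 2 higher), 17 with the replicate number as a block (12 lower, 5 higher), 130 with the male share as a covariate (80 lower, 50 higher), 26 with knock out replicate 2 as the only knock out array (13 lower, 13 higher) and 141 with an intensity trend in the moderation (121 lower, 20 higher). It was 48 with no filter, 87 over every probe set and 67 with values floored at the filter level. Leaving out 1 array gave 18 to 62 calls, 14 to 45 lower and 4 to 21 higher. In the order given, before leaving out single arrays, 52, 7, 13, 46, 12, 58, 48, 48 and 60 of the 60 genes kept their call. The numbers were not taken as pairs, since no same-numbered correlation over all tested genes exceeded 0.1. Knock out replicates 1 and 3 correlated best with the WT array of their own number (0.047 and 0.067). Knock out replicate 2 correlated more with WT replicate 3 (0.018) than with WT replicate 2 (0.0034). The medians of both cycle lists, however, had the same order of replicates in both groups. With replicate 2 as the only knock out array, where the lone array is assumed to vary like the other groups, Eif2s3y (-0.10) and Kdm5d (-0.044) changed sign. No called gene reversed in any of the 15 settings, but those that drop arrays or change only the spread could not reverse one. The 3 bright Hmgn1 probe sets kept their call in each of the 13 settings run for them. Left out there were the 2 settings that change the probe sets tested. Calls in the replication list were 7, 0, 0, 4, 0 and 17 under the first 6 settings named, and 1 to 9 when an array was left out. The cause of these changes was not tested. Dim genes such as Trim13 in knock out lie near the filter level, where differences are less certain.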
